A study of Mus musculus with 21 samples.

Results

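The 40 genes described here are interferon response genes: sensors of foreign nucleic acid, transcription factors, antiviral effectors, regulators, guanylate-binding proteins and immunity-related GTPases, and genes of antigen processing. They were taken by name from the annotation of Agilent mouse arrays, and each was read from its brightest probe at each day. All 40 had a named probe at both days, out of 26531 named genes on the day 0 design and 23249 on the day 7 design. The study asked whether the adaptor gene Card9 acts in the colon in the absence of a microbiota, in mice given dextran sodium sulfate (DSS), a salt added to drinking water that injures the colon epithelium. The arrays measured total RNA of whole colon from male germ-free (GF) C57BL/6J mice, which live without microbes, and a single dye was used. At day 0, before DSS, 7 arrays were labelled GF Card9-/- and 6 were labelled GF WT. At day 7 of DSS at 2%, there were 4 arrays of each label. The Card9-/- mice carry the deletion in all cells, the WT mice carry no engineered allele, and all groups at a day shared sex and treatment. The labels of these arrays give the sex of the mice and not their age. The labels do not say that each array was a separate mouse, so all p-values measure the spread between these samples, which may be technical. The days were run on different array designs, so that an effect of day cannot be told apart from one of the design, and levels were compared between labels within a day and not between days.

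Interferons are secreted cytokines that act on neighbouring cells through surface receptors. Type I and type III interferons act chiefly through the interferon-stimulated response element (ISRE) in the promoters of their target genes, whereas type II interferon, interferon gamma, acts chiefly through the gamma-activated sequence (GAS). In the gut, epithelial cells respond mainly to type III interferon and leukocytes to types I and II, and a low tonic level of response is known in healthy tissue. In RNA of a bulk tissue, fewer cells of a type and less RNA per cell cannot be told apart.

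The labels were checked first against Card9 itself, and the signal went against them. At day 0, the log2 signal of the brightest Card9 probe lay between 8.71 and 9.24 on the 7 arrays labelled GF Card9-/- and between 2.30 and 2.33 on the 6 labelled GF WT, where no array was well above background. At day 7, it lay between 7.93 and 8.57 on the arrays labelled GF Card9-/-, and the arrays labelled GF WT lay between 2.38 and 7.85, with replicate 1 alone well above background. Every direction below therefore follows the deposited label. The tissue itself matched: all 9 markers of colon epithelium were well above background on every array at both days. At day 0 their average was lowest on the array labelled GF WT replicate 6, at -0.50 log2 units from their own means, though 6 of the 9 were above their means. On that array 6 small intestine genes averaged 3.19 units above their own means. Some arrays stood apart: 8 genes of pancreatic digestive enzymes were on average 10.49 log2 units above their own day 0 means on the array labelled GF Card9-/- replicate 7, and 4.10 and 8.0 units above their day 7 means on replicates 2.1 and 6 of that label, against -0.12 or less on all other arrays. The percentage of spots well above background ran from 54.5 to 64.9 at day 0 and from 42.2 to 57.1 at day 7. Of the 40 members, 39 were well above background on every array at day 0, and 37 at day 7. The others were Mx2 at both days, and Ifit2 and Oas3 at day 7.

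Sequences that interferon-activated factors are known to bind are printed first, since many members hold them in their promoters. RefSeq promoter windows of 300 bases, 250 before and 50 after the start of the gene on build GRCm38.p6, were given for 30 members in 36 windows. The remaining members are Zbp1, Usp18, Mx1, Mx2, Oas2, Parp9, Parp14, Gbp6, Dhx58 and Iigp1. The ISRE core was searched as GAAA, any 2 bases, and GAAA, or TTTC, any 2 bases, and TTTC, which covers both strands. It was present in 20 of the 36 windows (55.6%), against 1131 of all 32851 windows (3.44%). The GAS core, TTC, any 3 bases, and GAA, which reads the same on both strands, was present in 11 of 36 (30.6%), against 2726 of all windows (8.30%). The 2 cores overlap in Bst2. By role, an ISRE core lay in the windows of 7 of 7 guanylate-binding and immunity-related GTPase genes and 8 of 13 antiviral effectors, and in 0 of 3 antigen processing genes. A match is a description of letters and not of a bound site.

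The examples below are an effector with several adjoining repeats (Isg15), one with separate copies (Ifit1), one that lies directly at the start of the gene (Oas1a), and GTPases (Gbp2, Irgm1, Igtp, Irgm2), with the ISRE cores in capitals. The last is Irf1, with its GAS core in capitals. The coordinates are chr4:156200855-156200916 on the minus strand for Isg15, chr19:34640765-34640833 on the plus strand for Ifit1, chr5:120907526-120907565 on the minus strand for Oas1a, chr3:142620584-142620633 on the plus strand for Gbp2, chr11:48871421-48871470 on the minus strand for Irgm1, chr11:58199502-58199551 on the plus strand for Igtp, chr11:58214893-58214942 on the plus strand for Irgm2 and chr11:53769904-53769952 on the plus strand for Irf1.
Isg15: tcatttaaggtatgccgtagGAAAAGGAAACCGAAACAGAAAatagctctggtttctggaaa
Ifit1: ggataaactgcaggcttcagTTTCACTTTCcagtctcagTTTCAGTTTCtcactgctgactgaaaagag
Oas1a: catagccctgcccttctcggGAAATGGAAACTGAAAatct
Gbp2: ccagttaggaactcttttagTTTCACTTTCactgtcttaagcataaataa
Irgm1: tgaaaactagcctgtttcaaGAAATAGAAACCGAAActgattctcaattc
Igtp: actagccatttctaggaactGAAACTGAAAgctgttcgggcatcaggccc
Irgm2: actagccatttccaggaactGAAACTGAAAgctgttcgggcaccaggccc
Irf1: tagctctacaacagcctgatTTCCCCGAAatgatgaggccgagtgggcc
The stretches of the neighbouring genes Igtp and Irgm2 have the same base at 48 of 50 positions.

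At day 0, before DSS, no member passed the test between the labels. By limma with Benjamini-Hochberg adjustment over all 47410 tested probes, 0 of 40 members were called, with adjusted p from 0.578 to 1.0, against 0.0253% of all tested probes. At an unadjusted p under 0.05, 2 members passed, against 5.84% of all tested probes, and leaving out single arrays gave 1 to 4, with 4 without GF WT replicate 2 (4.55% of all tested probes). Of the 40, 29 were higher on the arrays labelled GF Card9-/- and 11 lower, where 57% of all tested probes were higher. The median log2 difference was 0.09 over the members and 0.02 over all tested probes, and single members ranged from -0.24 to 0.52. The member median was 0.03 without GF Card9-/- replicate 5 (23 of 40 higher) and 0.17 without GF WT replicate 2 (34 of 40 higher). No member had arrays of the label GF Card9-/- entirely above those of the label GF WT, as 0.316% of all tested probes did.

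**Figure D1:**
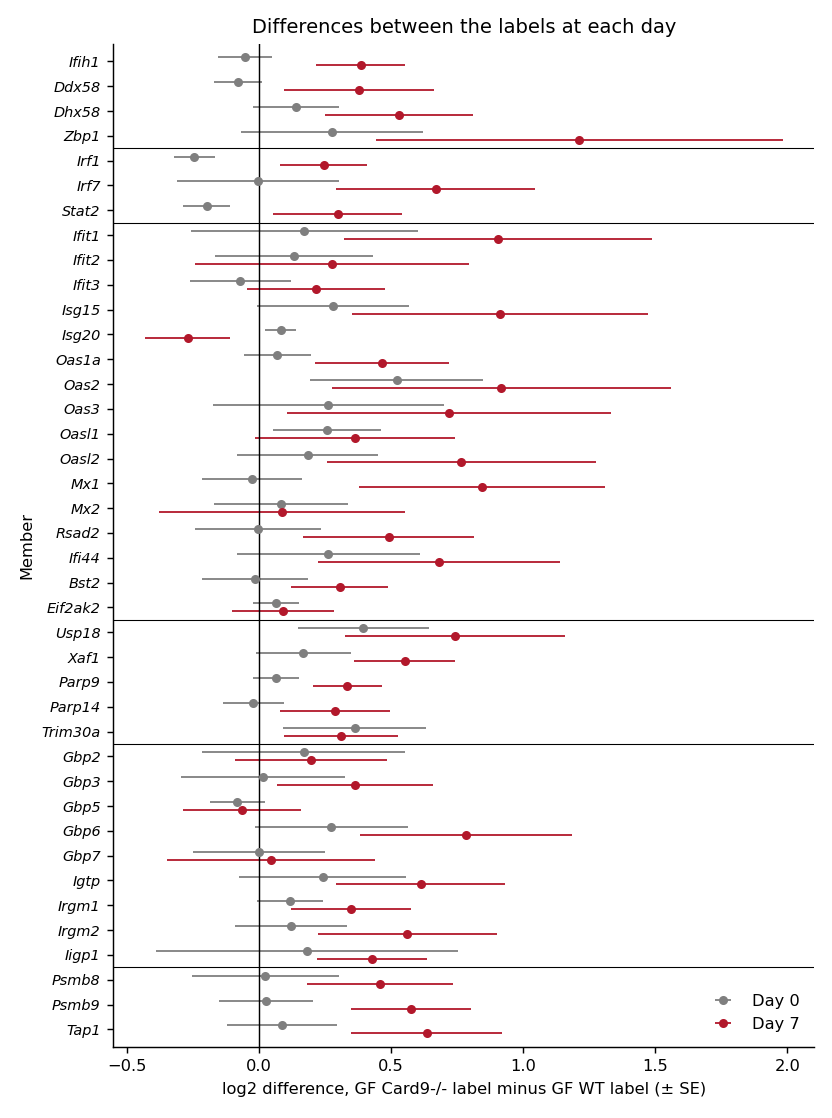
Log2 difference in signal between arrays labelled GF Card9-/- and GF WT for each of the 40 members, by role, at day 0 (7 against 6 arrays) and day 7 (4 against 4 arrays). Points are differences of means and bars are standard errors from limma. At day 0 the points lie from -0.24 to 0.52, and at day 7 from -0.27 to 1.21 with 38 of 40 above 0.

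To describe each array by a single value, an interferon score was taken as the mean, over the 40 members, of a gene's log2 signal minus its own mean over the arrays of that day. At day 0, the score was 0.05 ± 0.24 (SD, n = 7) on the arrays labelled GF Card9-/-, from -0.24 to 0.43, and -0.06 ± 0.27 (SD, n = 6) on the arrays labelled GF WT, from -0.32 to 0.37. The labels covered nearly the same range, and their difference of 0.11 was smaller than either SD. It was 0.043 without GF Card9-/- replicate 5 and 0.19 without GF WT replicate 2. The highest array of each label had most members above their own means, 34 of 40 on the array labelled GF Card9-/- replicate 5 and 35 of 40 on the array labelled GF WT replicate 2. The lowest scores were those of GF WT replicates 6 and 1, with 10 and 11 members above their means, and the fewest members above their means were on GF Card9-/- replicates 2 and 1, with 4 and 7.

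Each of the 4 day 0 slides held both labels, and the direction differed among them. The score difference, GF Card9-/- minus GF WT, was 0.52 on slide 1 (29 of 40 members higher), -0.20 on slide 2 (9 higher), -0.09 on slide 3 (14 higher) and 0.53 on slide 4 (32 higher), with 1 or 2 arrays of a label on a slide. By scan session it was 0.04 and 0.16. Without the 3 arrays of slide 4, the difference over the day was -0.01, with 17 of 40 members higher, so the direction turned.

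**Figure D2:**
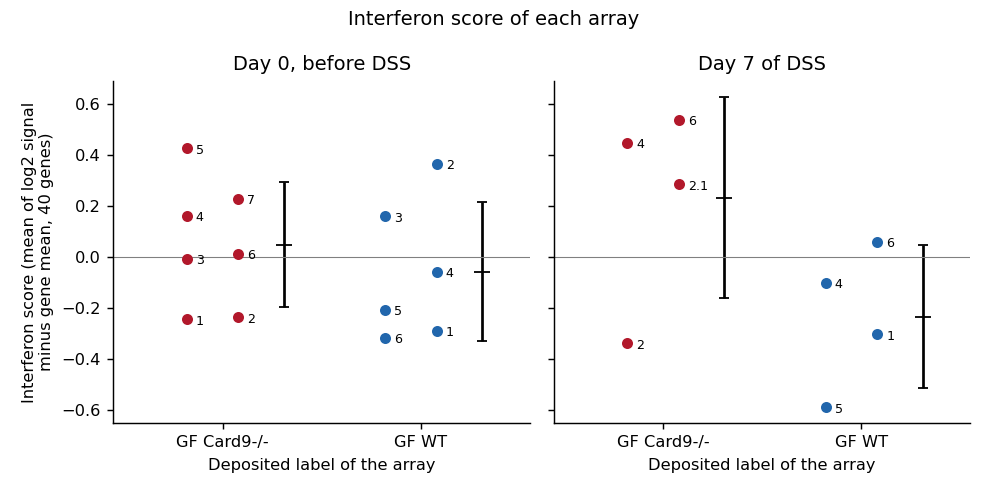
Interferon score of every array, the average deviation of the 40 members from their own means of that day in log2 units, at day 0 (left) and day 7 (right), by label, with bars for mean ± SD. At day 0 the labels overlap over nearly their whole range, and at day 7 3 of the 4 arrays labelled GF Card9-/- lie at 0.28 to 0.54, above all 4 labelled GF WT, while replicate 2 lies at -0.34.

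Among the sensors at day 0, Zbp1, which detects nucleic acid in the Z conformation, had a log2 signal of 9.26, 10.01 and 11.53 (lowest, median and highest) on the arrays labelled GF Card9-/- and 9.22, 10.01 and 10.64 on those labelled GF WT. The medians were the same and the ranges overlapped, and the difference of 0.28 (SE 0.34, limma adjusted p = 0.919) was smaller than its error. Ifih1, the cytosolic sensor of long double-stranded RNA also called MDA5, had 11.07, 11.37 and 11.60 against 11.13, 11.40 and 11.64, a difference of -0.05 (SE 0.10, limma adjusted p = 0.959). Of the 4 sensors, 2 were higher and 2 lower.

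The 3 transcription factors were all lower on the arrays labelled GF Card9-/- at day 0, and they included the 2 members that passed the unadjusted threshold. These are named for that reason, after their values were seen. Irf1, an activator induced chiefly by interferon gamma, had 13.60, 13.72 and 13.90 against 13.76, 14.05 and 14.15. Its difference was -0.24 (SE 0.078, limma adjusted p = 0.578, two-sided exact permutation p = 0.0134). Stat2, the subunit that carries the transactivation domain of the ISRE-binding complex, had 10.65, 10.91 and 11.05 against a lowest of 10.90 and a highest of 11.38, a difference of -0.20 (SE 0.089, limma adjusted p = 0.844, two-sided exact permutation p = 0.0478). The ranges overlapped for both genes. Irf7, the amplifier of type I interferon production, had 14.32, 14.94 and 15.44 against 14.08, 14.99 and 16.09 and a difference of -0.003 (SE 0.30, limma adjusted p = 1.0). Its direction is not fixed: the sign changed in 8 of 23 alternatives, and its other probe was at 0.01.

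Among the 16 antiviral effectors, 12 were higher and 4 lower at day 0, and the median difference was 0.11. Oas2, one of the enzymes that make the oligoadenylate messenger of the RNA-degrading enzyme RNase L, had the largest difference of all members: 8.95, 9.58 and 10.56 on the arrays labelled GF Card9-/- against 8.30, 8.97 and 10.39, or 0.52 (SE 0.33, limma adjusted p = 0.912). The highest WT-labelled array was above the median of the other label. Isg15, a ubiquitin-like protein attached to viral and host proteins, had 11.75, 12.48 and 13.22 against 11.23, 12.28 and 12.90, a difference of 0.28 (SE 0.29, limma adjusted p = 0.912). Oas1a, whose probe is also listed for its near copy Oas1g, had 14.33, 14.71 and 15.04 against 14.44, 14.68 and 15.09, a difference of 0.07 (SE 0.13, limma adjusted p = 0.951). The arrays of the labels overlapped for all 3 genes.

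The regulators included the next largest differences. Usp18, the protease that removes Isg15 from proteins and damps the type I receptor, had 7.71, 8.46 and 8.94 on the arrays labelled GF Card9-/- against 7.41, 7.96 and 8.63, a difference of 0.39 (SE 0.25, limma adjusted p = 0.912). Trim30a, a negative regulator of inflammatory signalling, had 8.59, 8.88 and 9.49 against 7.73, 8.61 and 9.67, a difference of 0.36 (SE 0.27, limma adjusted p = 0.912) that was -0.015 without the arrays of slide 4. Parp14, an ADP-ribosyltransferase, had 11.51, 11.82 and 12.14 against 11.58, 11.88 and 12.18, a difference of -0.02 (SE 0.12, limma adjusted p = 0.990). None of the 3 had labels whose arrays were apart.

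The GTPases, which coat and break the vacuoles of intracellular microbes, were higher for 8 of 9 genes by small amounts at day 0, with a median of 0.12. Irgm1, a regulatory member of the immunity-related GTPases, had 11.14, 11.25 and 11.75 against 10.95, 11.16 and 11.57, a difference of 0.12 (SE 0.13, limma adjusted p = 0.912). Psmb9, a catalytic subunit of the immunoproteasome that cuts peptides for MHC class I, had 11.36, 11.54 and 12.57 against 11.56, 11.63 and 11.99, a difference of 0.03 (SE 0.18, limma adjusted p = 0.990).

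Several of these day 0 differences moved by over 1.5 times when single arrays were left out. With GF WT replicate 2 left out, the difference was 0.42 for Zbp1, 0.43 for Isg15, 0.78 for Oas2, 0.57 for Trim30a and 0.067 for Irgm1. With replicate 1 of that label left out, it was 0.13 for Zbp1, 0.094 for Isg15 and 0.077 for Irgm1. With replicate 4 left out it was 0.17 for Zbp1, and with replicate 6 left out it was 0.18 for Trim30a and 0.19 for Irgm1. Of the arrays labelled GF Card9-/-, leaving out replicate 5 gave 0.054 for Zbp1 and 0.048 for Irgm1, leaving out replicate 2 gave 0.43 for Zbp1, and leaving out replicate 7 gave 0.15 for Isg15. When each array was left out in turn, Oas1a ran from 0.020 to 0.15 and Ifih1 from -0.11 to -0.0019. None of these values changed sign.

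**Figure D3:**
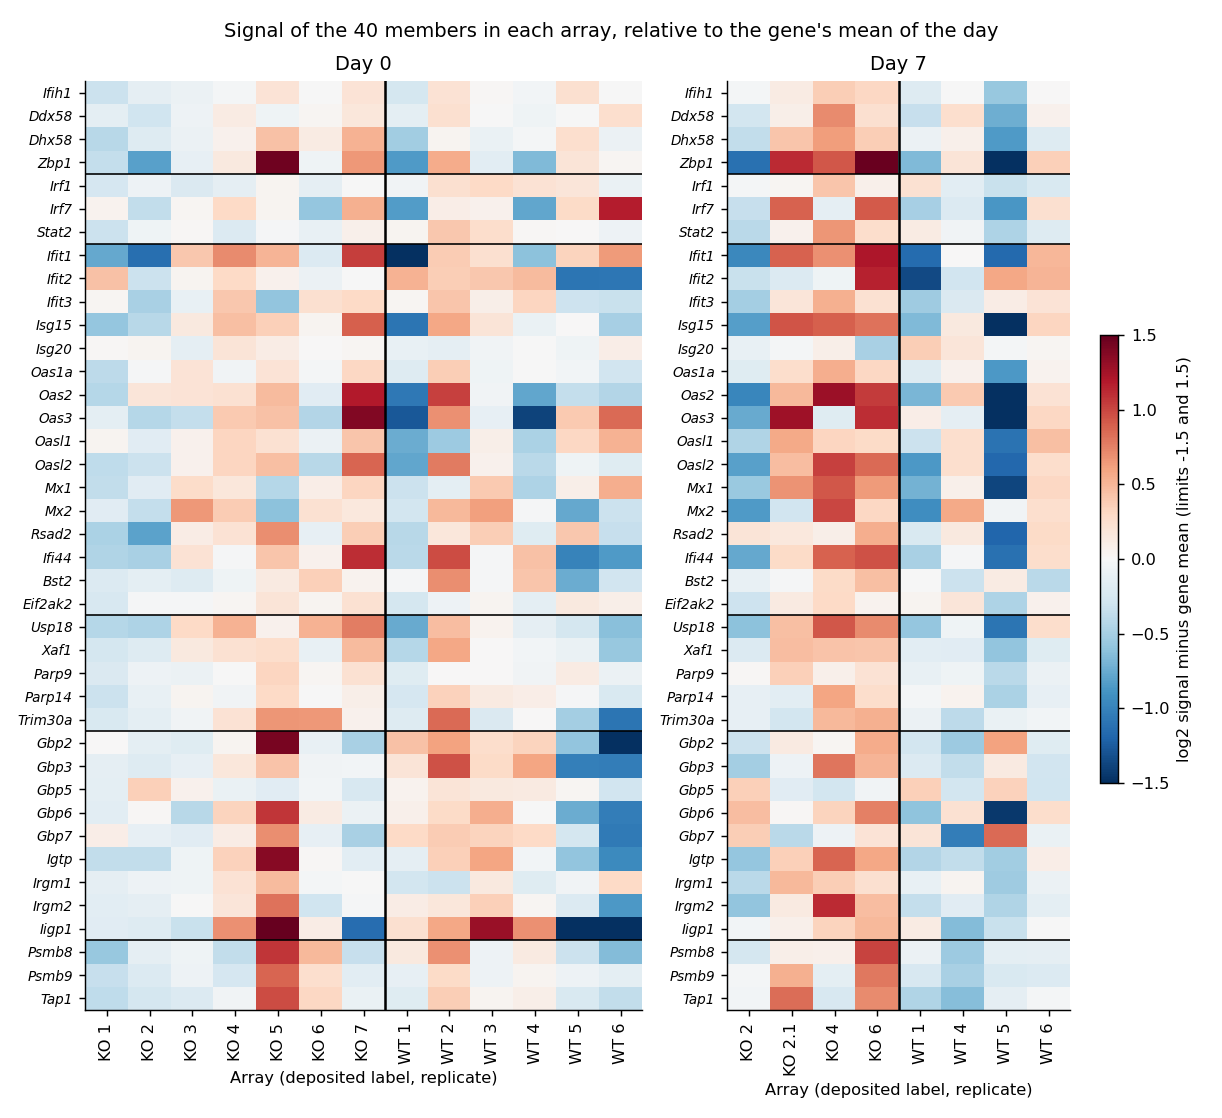
Log2 signal of each member minus its own mean over the arrays of the day, for every array at day 0 (left) and day 7 (right), with members in rows ordered by role and colour limits at -1.5 and 1.5. KO stands for the deposited label GF Card9-/- and WT for GF WT. Some columns are raised or lowered for most members, such as day 7 KO replicate 6 (38 of 40 above their means) and WT replicate 5 (7 of 40), and others are mixed, such as day 0 KO replicate 6 (19 of 40).

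The members varied more between arrays of 1 label than other genes did. At day 0, the median within-label SD was 0.42 over the 40 members and 0.26 over all tested genes at their brightest probe, and 29 members were above that median. At day 7, the values were 0.43 and 0.35, with 27 members above. The size of the difference between labels was larger than the within-label SD for 2 of 40 members at day 0, where 12.1% of all tested genes passed that mark, and for 21 of 40 at day 7, where 17.7% did. The days differ in their number of arrays, so these counts are not comparable between them.

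The arrays also differed in which role was high. At day 0, the effector score was highest on the array labelled GF Card9-/- replicate 7, at 0.54, where the GTPase score was -0.30. On replicate 5 of that label the GTPase score was 0.86 and the antigen processing score 0.97, with an effector score of 0.17. On the arrays labelled GF WT replicates 6 and 5, the GTPase score was -0.91 and -0.58 with effector scores of -0.12 and -0.17. These arrays also held extremes of the marker lists: replicate 7 was the array with pancreatic signal, replicate 5 of the label GF Card9-/- had a score of -4.16 for 6 adipocyte genes and -2.08 for 6 smooth muscle genes, WT replicate 6 had 3.19 for 6 small intestine genes and the macrophage score over 8 genes was lowest on replicate 5 of the label GF Card9-/-, at -1.74, followed by WT replicate 5. Their part in the GTPase and effector scores was not tested.

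**Figure D4:**
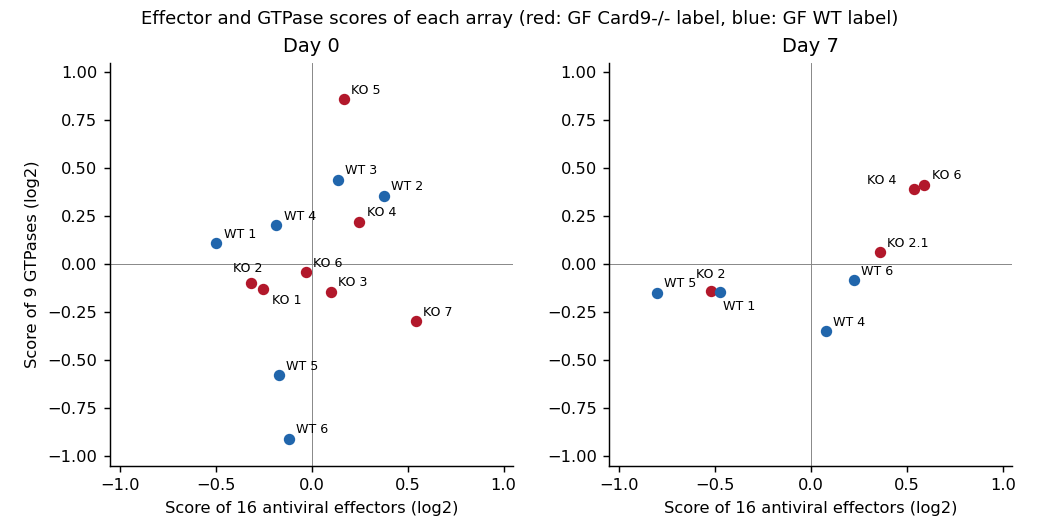
Score of the 9 guanylate-binding proteins and immunity-related GTPases (vertical axis, log2 units) against that of the 16 antiviral effectors (horizontal axis, log2 units), 1 point per array, at day 0 (left) and day 7 (right); KO stands for the label GF Card9-/-. At day 0 KO replicate 7 lies at 0.54 and -0.30 and KO replicate 5 at 0.17 and 0.86, whereas at day 7 KO replicates 4 and 6 are the highest on both axes, at 0.54 and 0.39 and at 0.59 and 0.42.

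At day 7 of DSS, nearly all members were higher on the arrays labelled GF Card9-/-, and none passed the test. Of the 40, 38 were higher and 2 lower, where 50.4% of all tested probes were higher. The median log2 difference was 0.44 over the members and 0.00 over all tested probes. By limma with Benjamini-Hochberg adjustment over 44643 probes, 0 of 40 members were called, with adjusted p from 0.913 to 1.0, and 0% of all tested probes were called. At an unadjusted p under 0.05, 3 members passed (Xaf1, Parp9 and Psmb9), against 3.38% of all tested probes. That count rested on single arrays: it was 19 without GF Card9-/- replicate 2, where 3.45% of all tested probes passed, and 0 without GF Card9-/- replicate 2.1, GF Card9-/- replicate 6 or GF WT replicate 5, and without both arrays with pancreatic signal. The arrays labelled GF Card9-/- lay entirely above those labelled GF WT for 2 members, Parp9 and Psmb9, against 1.08% of all tested probes.

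The score at day 7 was -0.34, 0.28, 0.45 and 0.54 on replicates 2, 2.1, 4 and 6 of the label GF Card9-/-, or 0.23 ± 0.40 (SD, n = 4). On replicates 1, 4, 5 and 6 of the label GF WT it was -0.30, -0.10, -0.59 and 0.06, or -0.23 ± 0.28 (SD, n = 4). The labels overlapped through replicate 2 of the label GF Card9-/-, where only 5 of 40 members were above their own means, against 31, 33 and 38 on the other arrays of that label. Among the WT-labelled arrays, 8, 17, 7 and 22 members were above their means. The score difference was 0.47 and lay between 0.35 and 0.66 when each array was left out in turn. Only 2 slides held both labels, with 1 array of each: it was -0.40 on the slide of GF Card9-/- replicate 2 and GF WT replicate 6, where 33 of 40 members were lower, and 0.39 on the slide of GF Card9-/- replicate 2.1 and GF WT replicate 4, where 34 were higher. Without the arrays with pancreatic signal, replicates 2.1 and 6 of the label GF Card9-/-, the difference was 0.29 with 36 of 40 members higher, and without the array labelled GF WT replicate 1 as well it was 0.26 with 35 of 40 higher.

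The sensors were higher for 4 of 4 genes at day 7, with a median of 0.46. Zbp1, read by a probe at chr2:173039307-173039366 of build mm9, had the largest difference of all members. Its log2 signal was 8.76, 11.01, 10.82 and 11.37 on replicates 2, 2.1, 4 and 6 of the label GF Card9-/- and 9.22, 10.08, 7.56 and 10.24 on replicates 1, 4, 5 and 6 of the label GF WT, in the order kept below. Replicates 2.1, 4 and 6 were above all WT-labelled arrays and replicate 2 was below 3 of them, and the difference of 1.21, or 2.32-fold, had an SE of 0.77 (limma adjusted p = 0.913). Ifih1 had 11.42, 11.58, 11.83 and 11.77 against 11.26, 11.45, 10.89 and 11.46, a difference of 0.38 (SE 0.17, limma adjusted p = 0.913). Here replicate 2 was below the WT-labelled replicates 4 and 6 and the other arrays of its label were above all of them.

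The 3 transcription factors were higher at day 7, with a median of 0.30. Irf1 had values from 13.80 to 14.25 on the arrays labelled GF Card9-/- and from 13.50 to 14.06 on those labelled GF WT, a difference of 0.25 (SE 0.16, limma adjusted p = 0.913). Irf7 had a difference of 0.67 (SE 0.38) and Stat2 of 0.30 (SE 0.24), neither of which passed the test.

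Of the 16 effectors, 15 were higher and Isg20, an exonuclease of RNA, was lower by a difference of -0.27 (SE 0.16, limma adjusted p = 0.913). The median was 0.48. Oas2, at chr5:121180343-121180402 of mm9, had 7.87, 9.33, 10.13 and 9.89 on the arrays labelled GF Card9-/- against 8.17, 9.24, 7.09 and 9.06, a difference of 0.92 (SE 0.64). Isg15, at chr4:155573649-155573708 of mm9, had 10.94, 12.71, 12.66 and 12.57 against 11.10, 11.91, 10.13 and 12.09, a difference of 0.91 (SE 0.56). In both, replicate 2 was lower than all WT-labelled arrays but replicate 5, and the other arrays of its label were the highest. Ifit1, which binds foreign RNA lacking cap methylation, had 6.14, 7.99, 7.80 and 8.32 against 5.96, 7.12, 5.95 and 7.61, a difference of 0.90 (SE 0.58). Mx1, a dynamin-like GTPase, had 6.06, 7.29, 7.55 and 7.25 against 5.91, 6.70, 5.24 and 6.93, a difference of 0.84 (SE 0.46). In all 4 of these genes replicates 2.1, 4 and 6 were above every WT-labelled array and replicate 2 was not, and the limma adjusted p was 0.913 for each. Oas1a had values from 14.42 to 15.15 against 13.74 to 14.67, a difference of 0.47 (SE 0.25, limma adjusted p = 0.913).

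**Figure D5:**
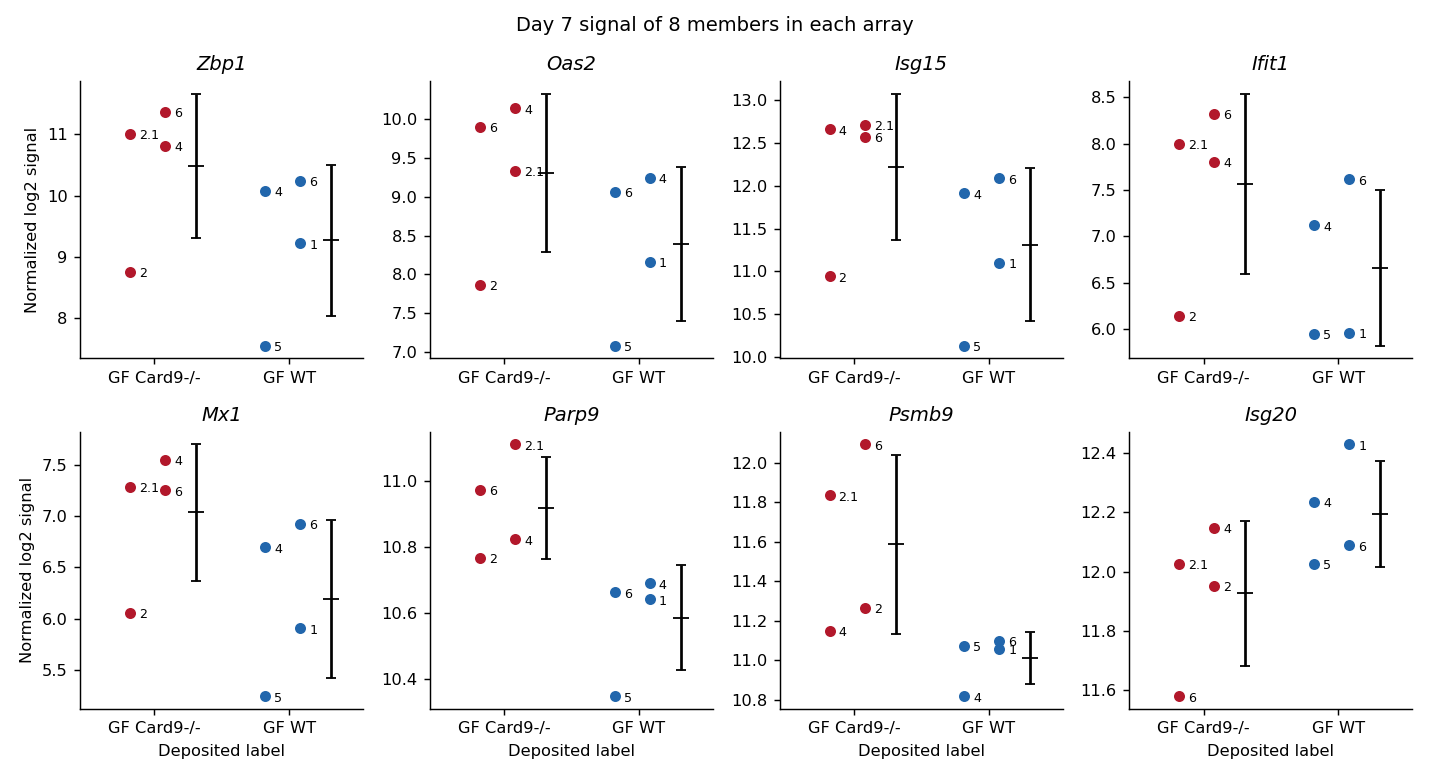
Log2 signal on each array at day 7 for members described with full values, by label (4 arrays each), with bars for mean ± SD. In Zbp1, Oas2, Isg15, Ifit1 and Mx1, 1 array labelled GF Card9-/- lies within the WT-labelled range and 3 lie above it, and in Parp9 and Psmb9 the labels do not overlap.

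The regulators were higher for 5 of 5 genes at day 7. Parp9, the partner of the ubiquitin ligase Dtx3l, at chr16:35972577-35972636 of mm9, had 10.77, 11.11, 10.82 and 10.98 on the arrays labelled GF Card9-/- against 10.64, 10.69, 10.35 and 10.66. The labels did not overlap, with a difference of 0.33 (SE 0.13, limma adjusted p = 0.913). The two-sided exact permutation p was 0.0286, the smallest that 4 against 4 arrays allow. Labels of 4 arrays each that do not overlap always give this value, so it adds nothing to the lack of overlap. Xaf1, a pro-apoptotic antagonist of the inhibitor XIAP, had a difference of 0.55 (SE 0.19, limma adjusted p = 0.913, two-sided exact permutation p = 0.114). Only replicate 2 of the label GF Card9-/- was inside the WT-labelled range. Parp14 had values from 11.50 to 12.25 against 11.18 to 11.71, a difference of 0.29 (SE 0.21, limma adjusted p = 0.913).

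The GTPases were higher for 8 of 9 genes, with a median of 0.36. Gbp5, which promotes inflammasome assembly, was lower by a difference of -0.07 (SE 0.22), and the difference was 0.78 (SE 0.40) in Gbp6 and 0.61 (SE 0.32) in Igtp. Irgm1 had values from 10.41 to 11.31 on the arrays labelled GF Card9-/- and from 10.28 to 10.86 on those labelled GF WT, a difference of 0.35 (SE 0.23, limma adjusted p = 0.913).

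All 3 antigen processing genes were higher at day 7, with a median of 0.57. Psmb9, at chr17:34319174-34319233 of mm9, had 11.27, 11.83, 11.15 and 12.09 on the arrays labelled GF Card9-/- against 11.06, 10.82, 11.07 and 11.10. The labels did not overlap, with a difference of 0.57 (SE 0.23, limma adjusted p = 0.913). The two-sided exact permutation p of 0.0286 is again fixed by the lack of overlap. Replicate 4 of the label GF Card9-/- and replicate 6 of the label GF WT were the nearest. Psmb8, its partner subunit, had values from 11.04 to 12.31 against 10.75 to 11.21, a difference of 0.46 (SE 0.28, limma adjusted p = 0.913). Tap1, which moves peptides into the endoplasmic reticulum, had a difference of 0.64 (SE 0.29). The antigen processing score was 0.84 and 0.49 on replicates 6 and 2.1 of the label GF Card9-/-, the arrays with pancreatic signal, and -0.11 on both replicates 2 and 4.

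The day 7 differences of these members depended on 1 or 2 arrays. Without the array labelled GF WT replicate 5, the difference was 0.65 for Zbp1, 0.49 for Oas2, 0.53 for Isg15, 0.53 for Mx1, 0.25 for Oas1a, 0.18 for Parp14 and 0.23 for Irgm1. Without the array labelled GF Card9-/- replicate 2, it was 1.4 for Oas2, 1.38 for Ifit1 and 0.54 for Irgm1. Without the arrays with pancreatic signal, which were replicates 2.1 and 6 of that label, it was 0.51 for Zbp1, 0.49 for Isg15, 0.31 for Ifit1, 0.21 for Parp9, 0.20 for Psmb9, 0.14 for Psmb8 and 0.16 for Irgm1. Without replicate 4 of the label GF Card9-/- it was 0.15 for Irf1 and 0.14 for Parp14, and without replicate 6 it was 0.20 for Psmb8. All of these kept their sign. For the effectors, the background correction also mattered in Mx1, whose difference was 0.51 with the normexp method.

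Probes of the same gene did not always point the same way. At day 0, 23 members had over 1 probe (71 probes for the 40 members), and the probes of Ddx58, Irf7, Parp9, Rsad2 and Stat2 disagreed in sign. The probe of Parp9 that did so was well above background on 0 of 7 and 1 of 6 arrays, and in each of the other 4 genes the difference of 1 of the disagreeing probes was between -0.02 and 0.03. At day 7, 15 members had over 1 probe (55 probes), and those of Gbp5, Gbp7, Irf1 and Psmb9 disagreed, but the other probe was well above background on no array for Gbp7 and Irf1 and on 1 of 8 arrays for Psmb9, so that only the probes of Gbp5, at -0.07 and 0.12, could be compared.

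Other genes of the pathway, listed by role, had smaller median differences than the members at both days. At day 0, 72 of 77 listed genes were tested: 37 were higher and 35 lower on the arrays labelled GF Card9-/-, where 57% of all tested probes were higher, with a median difference of 0.01, and 0 were called by limma. At an unadjusted p under 0.05, 5 of the 72 passed, against 5.84% of all tested probes. At day 7, 74 were tested: 60 were higher and 14 lower, where 50.4% of all tested probes were higher, with a median of 0.23, and 0 were called by limma. The unadjusted threshold was passed by 6 of the 74, against 3.38% of all tested probes. Among the ligands, Ifnb1 and Ifna4 were not well above background on any array at either day, and Ifng was so on 1 of 8 arrays at day 7 and on none at day 0. Of the 7 measured ligands, 2 were well above background on every array at day 0 and 0 at day 7. The 5 tested at day 0 differed by -0.12 to 0.69, and the 6 tested at day 7 by -1.02 to 0.42. The 6 receptor genes differed by -0.07 to 0.25 at day 7. Arrays of the label GF Card9-/- lay entirely above the others for 4 of the 74 listed genes at day 7, where 1.08% of all tested probes did so. They were named after their values were seen: Nlrc5, the transactivator of MHC class I genes, by 1.21 (SE 0.25), B2m, the shared light chain of class I molecules, by 0.69 (SE 0.23), the class I heavy chain H2-K1 by 0.40 (SE 0.14), and Nmi, an interferon-induced protein, by 0.40 (SE 0.23). The limma adjusted p was 0.913 for each of the 4.

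Markers of other cell types also differed between the labels at day 7, though none was called. At an unadjusted p under 0.05, where 3.38% of all tested probes passed, the passing genes were Cd3g and Lck of the 10 T and NK cell genes, S100a8 and S100a9 of the 5 tested neutrophil genes and, among 5 tested small intestine genes, Mttp and Sis, which were higher, and Fabp6, which was lower. The labels did not overlap for S100a8, by 1.46 (SE 0.28), and S100a9, by 1.65 (SE 0.33), though S100a8 was well above background on 1 array. They also did not overlap for 3 pancreatic genes, which were higher, and for 1 small intestine gene that was higher and 1 that was lower. Of all tested probes, 1.08% had arrays labelled GF Card9-/- entirely above the others. All 10 T and NK cell genes were higher, with scores from -0.01 to 0.96 on the arrays labelled GF Card9-/- and from -0.68 to 0.02 on those labelled GF WT, and the NK markers Ncr1 and Gzmb were not well above background on any array. The neutrophil list was higher for 5 of 5 tested genes, with scores from -0.09 to 0.66 against -0.33 to -0.17, while Cxcr2, Mmp8 and Ngp were not well above background on any array. All 9 colon epithelium genes were higher, with scores from -0.04 to 0.47 against -0.78 to 0.18. Adipocyte genes were higher for 5 of 6, from -0.45 to 1.68 against -1.81 to 0.78, small intestine genes for 4 of 5, from -0.19 to 1.29 against -1.55 to 0.46, and pancreatic genes for 7 of 8. All 6 smooth muscle genes were lower. Macrophage genes differed by 0.02 in score, plasmacytoid dendritic cell genes by 0.06, and B and plasma cell genes by 0.35 with arrays from -1.92 to 2.13. The array labelled GF WT replicate 5, lowest in the interferon score, was also lowest in the epithelial and adipocyte scores, at -0.78 and -1.81, and highest in the macrophage and smooth muscle scores, at 0.92 and 1.21. The part of these cell types in the member differences was not tested. At day 0, all 8 macrophage genes and all 6 smooth muscle genes were lower on the arrays labelled GF Card9-/-, as were all 6 B and plasma cell genes and all 5 tested small intestine genes. All 8 pancreatic genes and 9 of 10 T and NK cell genes were higher, and none of these lists held a called gene.

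Whether the difference between labels itself changed from day 0 to day 7 was tested with the 23633 probes that both designs hold and that passed the filter at each day, which include a probe for 32 members. By limma, 0 of 32 members were called, with adjusted p from 0.495 to 1.0, and 0% of all shared probes were called. At an unadjusted p under 0.05, 3 members passed, against 7.14% of all shared probes. The day 7 difference exceeded the day 0 difference for 31 of the 32, by a median of 0.39 against 0.01 over all shared probes, of which 51.4% were above 0. The 3 members are named after their values were seen: Irf1, from -0.24 at day 0 to 0.25 at day 7 (change 0.49, SE 0.16, limma adjusted p = 0.495), Stat2, from -0.20 to 0.30 (change 0.50, SE 0.22, limma adjusted p = 0.668), and Isg20, from 0.08 to -0.27 (change -0.35, SE 0.14, limma adjusted p = 0.601). Mx1 and Zbp1 had the largest changes, 0.87 (SE 0.44) and 0.94 (SE 0.76). The median over the members was 0.57 without the day 7 array labelled GF Card9-/- replicate 2 (29 of 32 above 0), 0.26 without replicate 6 of that label (27 of 32) and 0.24 without the arrays with pancreatic signal (27 of 32).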

How the data were processed

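Total RNA of whole colon was hybridised in a single colour to Agilent mouse arrays, 13 at day 0 and 8 at day 7. The deposited intensity values were the processed signal of Agilent Feature Extraction 10.7.3.1, per the file headers, background-corrected by the authors' scanner software and not normalized between arrays; the deposited detection p-value of each spot and the background flags came from the same files. Probe coordinates are those of the headers, on build mm9. The authors also deposited a table of normalized log2 values for each day, made per their methods with agilp and quantile normalization from a signal column that is not stated, which served as an alternative here. No columns of the authors' own comparisons were used. Here, the signal was taken to log2 and quantile normalized over all spots within each day. Control spots and outlier spots were then removed, and spots of a probe averaged. Probes detected at p below 0.05 in at least 50% of spots, on at least 60% of arrays of a label, with at least 2 values per label, were tested: 47410 of 56605 at day 0 and 44643 of 55681 at day 7. The labels were compared with lmFit and eBayes of limma 3.58.1 (R 4.3.3) without covariates, and p-values adjusted by Benjamini-Hochberg over all tested probes at 0.05. Single members were also given a two-sided exact permutation test over arrays. Its p is printed where it was under 0.05, and for Xaf1 at day 7. In the remaining cases it was 0.136 or more at day 0 and 0.0857 or more at day 7. The scripts were tested on simulated data.

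Each member was read from its brightest probe at each day. Full statistics were given for the 5 members with the largest difference at each day, those whose labels did not overlap, and the brightest of each role. The members, role groups, the list of other pathway genes, the marker lists and the tests were chosen with earlier results of these data known. Groups were taken from the labels. Alternatives were other normalizations, background corrections and filters, the authors' log2 values, leaving out arrays, slide and scan session, all probes, and pairing by replicate number. The arrays labelled replicates 2 and 2.1 were counted as 2 samples. They differed from each other about as much as other day 7 arrays of a shared label did. The SD of the log2 difference was 0.852, against a median of 0.907 over the other within-label pairs of both labels. For arrays, the number of arrays limits the precision. One gene of the pathway is not reported here.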

Additional observations from a re-analysis of the deposited data

Results flagged for a closer look

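The highest or lowest array of a label was set apart where its gap to the next array, as a share of the range of that label's arrays, was above the 95% critical value of Dixon's test. Of 92 groups of 4 to 7 arrays (each member with full values, each role score and the score over all members, by label and day), 6 held such an array, and by the construction of that test chance gives about 1 such group in 20. All 6 were among the 46 groups of 4 arrays at day 7. On the array labelled GF Card9-/- replicate 2, the transcription factor score was -0.26, where the other arrays of that label lay from 0.32 to 0.42, and the log2 signal of Isg15 was 10.94, where the others lay from 12.57 to 12.71. On the array labelled GF WT replicate 4, the log2 signal was 6.80 for Trim30a (others 7.09 to 7.15), 10.82 for Psmb9 (others 11.06 to 11.10) and 10.75 for Psmb8 (others 11.15 to 11.21). On the array labelled GF WT replicate 5, Parp9 was at 10.35 (others 10.64 to 10.69).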

How the results depend on the processing

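No member was called at either day or between the days under any alternative that gave a value: 25 alternatives at day 0, 21 at day 7 and 29 between the days. The score difference at day 7 stayed above 0 in all of its alternatives, from 0.26 to 0.66 (0.35 to 0.66 when each array was left out in turn). At day 0 it ran from -0.01 to 0.19 (0.043 to 0.19 when each array was left out), and the only negative value came without the arrays of slide 4. The replicate numbers were not taken to pair the arrays: at day 0, deviations of same-numbered arrays correlated from -0.022 to 0.38, with 3 of 6 pairs over 0.1, and 4 of 12 arrays correlated best with their own number. With the replicate block, 0 members were called at either day, and the score difference was 0.076 at day 0 and 0.52 at day 7, as in the same arrays without the pairs. At day 7, only replicate numbers 4 and 6 occurred in both labels, so the fits with and without pairs used 4 of the 8 arrays. Among them was GF Card9-/- replicate 6, which carried pancreatic signal. With the block at day 7, 11 members passed an unadjusted p under 0.05 (6.13% of all tested probes), against 12 in the same arrays without the pairs (5.86%). In those 4 arrays, the difference with the block was 0.44 for Irf1, 0.46 for Parp14 and 0.89 for Psmb8. Of 24 member differences followed, 5 reversed in 18 of 487 settings, all at day 0 and all for differences that had not passed the test. With the 75th percentile in place of quantile normalization, the difference was 0.046 for Irf7 and 0.0063 for Parp14, and with slide as a block it was -0.023 for Psmb9. Without the arrays of slide 4, it was 0.34 for Irf7, -0.22 for Psmb9, -0.015 for Trim30a and -0.0018 for Oas1a. When each array was left out, Irf7 ran from -0.17 to 0.23, Parp14 from -0.075 to 0.046 and Psmb9 from -0.11 to 0.087. The cause was not tested. Mx2 at both days, and Ifit2 and Oas3 at day 7, were near background on some arrays, which limits what their values show. The alternatives without arrays that carry pancreatic signal, and the paired arrays fitted without pairs, were chosen after seeing the data.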
